A study of Homo sapiens with 12 samples.

Results

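Tumours grown from spheroid cells were compared with tumours grown from parental cells of the established human lung cancer line NCI-H1299, of the non-small cell type. The comparison took the 3 samples titled as spheroid xenografts and the 3 titled as parental xenografts, 6 of the 12 arrays of the series, and read expression across all genes. Both kinds of tumour carry the same cell line, and the labels name no added gene, drug or knockdown in either. The parental cells had been grown in medium with serum before grafting. The spheroid cells had been moved as a monolayer into a stem cell medium for 7 to 10 days, after which the floating cells were collected and placed in flasks that hinder attachment. The other 6 arrays hold the same 2 kinds of cell in culture, 3 of each, and are used here only to set the tumour differences beside those of the cultured cells. By their labels, the samples within each group are separate biological replicates. The sources used here do not give the host animal, the graft site or the age of the tumours, nor whether each tumour grew in an animal of its own. The p-values therefore measure only the spread between these samples, some of which may be technical.

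Tumour cells that grow as floating spheroids in serum-free stem cell medium are widely used as a source of cells with stem-like growth, and grafting them into an animal shows whether features of the spheroid state persist once the cells form a tumour. A carcinoma cell in a tumour makes part of its own extracellular matrix (fibronectin, laminins, collagens and matricellular proteins such as SPARC), binds it through integrins and remodels it with secreted proteases. Mesenchymal-like carcinoma cells make more of the interstitial matrix proteins, and epithelial-like cells more of the junction, keratin and basement membrane proteins. Interferon-stimulated genes are a separate programme of antiviral defence, and many carry a repeated GAAA element in their promoters.

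Levels are deposited log2 expression values, so a difference of 1 is a 2-fold change, and each gene is read by whichever of its probe sets had the highest mean level on the 6 arrays. The array medians ran from 5.88 to 5.99, and the interquartile range was 2.98 to 2.99 on 4 arrays but 3.29 for the third parental tumour and 3.23 for the third spheroid tumour. Arrays correlated at r = 0.977 to 0.986 within the parental tumours, at 0.990 to 0.994 within the spheroid tumours and at 0.974 to 0.986 between the groups. The median SD per gene was 0.199 in parental and 0.157 in spheroid tumours. As a check of the labelled cell type, the lung lineage factor NKX2-1 lay between 6.40 and 7.09, and the club cell gene SCGB1A1 between 4.64 and 4.94, near the mean lower quartile of all probe sets (4.72). The epithelial cadherin CDH1 (4.39 to 4.68) and the epithelial adhesion gene EPCAM (at or under 4.28) lay below that quartile on every array. Most of the keratin and junction list did not: 16 of 19 measured members had both group means above the quartile, and 3 had both below it. Of 12 lung lineage markers measured 11 had both group means above it. So did 11 of 11 lymphocyte, 11 of 13 macrophage and 4 of 8 neutrophil markers, so clearing the quartile does not tell cell types apart. The mesenchymal filament gene VIM lay between 14.47 and 14.70 on all 6 arrays. Endothelial, macrophage, lymphocyte, neutrophil, adipocyte, skeletal muscle, erythroid, keratinocyte, mural and lung lineage marker lists had 0 called genes each. The probe sets were matched to human genes, and whether they read cells of the host was not tested. The 0 calls therefore do not show that host cell content was alike.

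By limma, 154 of 19775 genes (0.779%) passed at a Benjamini-Hochberg adjusted p under 0.05, 58 higher (0.293%) and 96 lower (0.485%) in spheroid xenografts. Of these, 39 were higher (0.197%) and 86 lower (0.435%) by 2-fold or more. Over all genes 54.2% had a difference above 0, and the median was 0.02, the background for the list counts below. All 154 had parental and spheroid values that did not overlap, as did 16.5% of all genes tested (9.28% higher and 7.25% lower in spheroid xenografts). With the replicate number as a block, 478 genes (2.42%) passed, 204 higher (1.03%) and 274 lower (1.39%), and 153 of the 154 stayed called. The count rested heavily on single arrays: among spheroid xenografts, leaving out replicate 1, 2 or 3 gave 66, 6 or 74 calls, and among parental xenografts leaving out replicate 2 gave 50 and replicate 3, the array with the widest spread, 417. PRRX1, SPARC, SATB1, BCL2A1 and NEDD4L were the 5 of 65 named genes that stayed called whichever of the 6 arrays was left out. Under the alternatives that kept all arrays or left out the widest of each group, 11 of the 65 kept their call throughout. HOXC10, LAMB1, S1PR1, SH3BGRL, SLC7A5 and SUN3 each lost it with all 12 arrays, after median centring and without the widest arrays. For the rest, losses are stated below for only some genes and some settings. With 4 residual degrees of freedom the median SE of a difference was 0.158. In simulated data of this design 60 of 100 genes moved by 1 in log2 and 93 of 100 moved by 2 were called, so a change of 2-fold could often be missed.

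**Figure D1:**
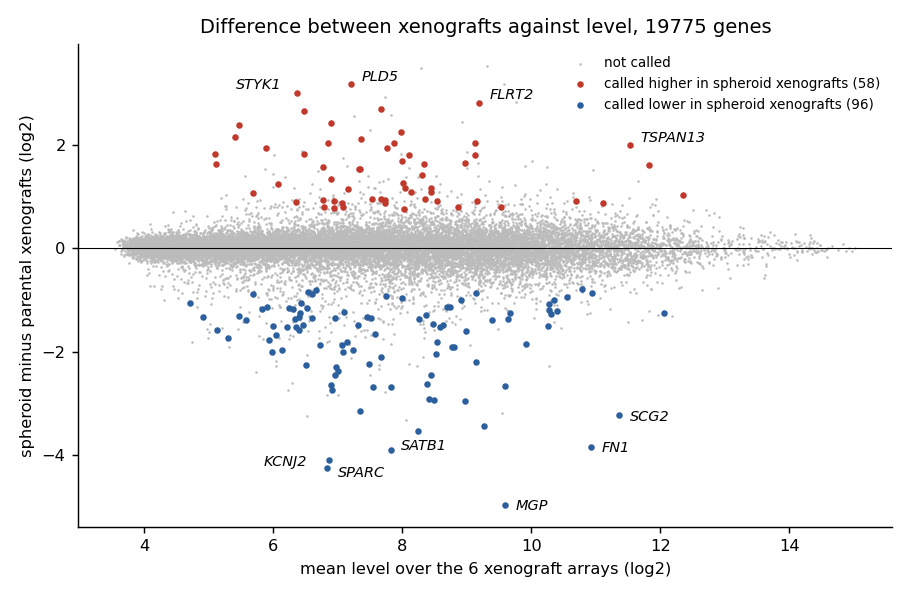
Difference between spheroid and parental xenografts (log2, vertical axis) against the mean level over the 6 arrays (log2, horizontal axis) for 19775 genes. Red points are the 58 genes called higher and blue points the 96 called lower in spheroid xenografts; the lower genes reach differences of -4.97 (MGP) and the higher ones 3.17 (PLD5).

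Several of the genes that fell furthest in spheroid xenografts encode secreted and matrix proteins. SPARC, a secreted glycoprotein that binds collagen, read 8.90, 8.98 and 9.01 in the 3 parental tumours and 4.48, 4.80 and 4.85 in the 3 spheroid tumours. The difference was -4.25 (SE 0.14, limma adjusted p = 1.86e-05). Each parental tumour lay far above each spheroid tumour, and the spheroid level was near the lower quartile of all probe sets, so the size of the fall is uncertain. A second and dimmer SPARC probe set gave -1.57, and with it in place of the first SPARC was not called. FN1, which encodes fibronectin, the adhesive protein that links cells to interstitial matrix, read 13.70, 12.75 and 12.09 in parental tumours and 8.95, 8.22 and 9.85 in spheroid tumours. Its difference was -3.84 (SE 0.48, adjusted p = 0.0154), and all 7 FN1 probe sets had that sign, from -0.30 on a dim one to -4.16. It was not called on that dim one, which stood for FN1 without _x_at and _s_at probe sets, nor with all 12 arrays in the fit.

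MGP, an inhibitor of matrix calcification that needs vitamin K, showed the largest fall. It read 13.78, 12.03 and 10.43 in parental tumours and 7.08, 8.19 and 6.07 in spheroid tumours, a difference of -4.97 (SE 0.80, adjusted p = 0.0360). The parental tumours themselves spread over more than 3 log2 units, yet the lowest of them lay above the highest spheroid tumour. The other MGP probe set was dim and gave -0.67, and MGP was not called with it, after median centring or with the mean of both probe sets. STC1, a secreted glycoprotein hormone of calcium and phosphate handling, read 10.02, 12.16 and 10.76 against 7.51, 7.24 and 7.90 and fell by 3.43 (SE 0.47, adjusted p = 0.0267). MGP and STC1 were the 2 of 17 measured genes of mineralisation that were called, both lower, and the list had a median difference of -0.14 against 0.02 over all genes.

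**Figure D2:**
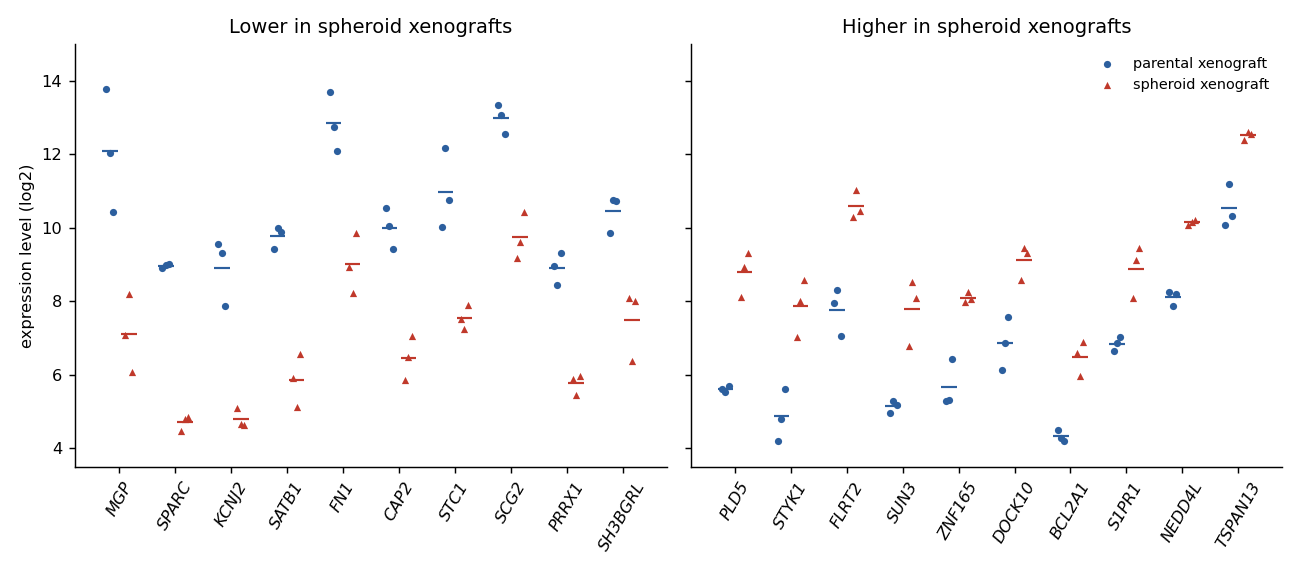
Expression level (log2) of 10 genes lower and 10 genes higher in spheroid xenografts, by array. Blue circles are the 3 parental and red triangles the 3 spheroid xenografts, and lines are group means; no gene shown has overlapping groups, and MGP spreads from 10.43 to 13.78 among the parental tumours.

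Other structural matrix genes fell too. FBN2, a fibrillin of microfibrils, differed by -2.93 (SE 0.43, adjusted p = 0.0309), and EFEMP1, a fibulin of elastic fibres, by -1.73 (SE 0.28, adjusted p = 0.0352) down to spheroid values of 4.27 to 4.52. The 2 laminin chains called went in opposite directions. LAMB1, the beta chain of the laminins found in most basement membranes, read 7.79, 6.71 and 6.47 in parental and 5.07, 5.11 and 4.76 in spheroid tumours (difference -2.01, SE 0.32, adjusted p = 0.0333). LAMB3, the beta chain of the epithelial laminin-332 that anchors skin and glands, ran from 7.75 to 8.91 in parental and from 9.89 to 10.15 in spheroid tumours (difference 1.81, SE 0.27, adjusted p = 0.0321). No other member of the 12 laminin and basement membrane genes was called.

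Of 22 collagens and collagen-modifying enzymes 0 were called, by limma or with the replicate block, although 17 lay below 0 and the median was -0.35 (-0.12 without _x_at and _s_at probe sets). Single parental tumours stood out in this list. COL6A3, a chain of the pericellular collagen VI, read 9.59 in parental xenograft replicate 1 and 5.81 in replicate 3, against 4.84 to 5.15 in spheroid tumours (difference -2.18, SE 0.87, adjusted p = 0.358). PLOD2, which hydroxylates collagen lysines for crosslinking, read 10.46, 10.01 and 10.04 against 8.86, 8.68 and 9.49 (difference -1.16, SE 0.23, adjusted p = 0.0711). Among 20 matricellular genes SPARC was the 1 called, and the median of the list was -0.06.

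Of 25 matrix proteases and their receptors 2 were lower and 0 higher, with a median of -0.44 and 21 members below 0. ADAMTS1, which cleaves proteoglycans, read 6.74, 7.54 and 6.34 in parental and 5.39, 5.15 and 5.06 in spheroid tumours (difference -1.67, SE 0.28, adjusted p = 0.0399). ADAMTS3, which trims procollagen, differed by -1.88 (SE 0.32, adjusted p = 0.0472). ADAMTS1 was not called after median centring or with the mean of its probe sets. ADAMTS3 was not called after any of the 3 normalisations, without _x_at and _s_at probe sets, or when each group lost its widest array. With the replicate block 5 members passed, all lower: these 2, the urokinase PLAU (-1.30, blocked adjusted p = 0.0171), its receptor PLAUR (-0.83, 0.0308) and the lysosomal protease CTSB (-1.10, 0.0481). Without the block PLAU had adjusted p = 0.0626, PLAUR 0.0574 and CTSB 0.0773. The gelatinase MMP2 read 12.36 in parental xenograft replicate 1 against 7.99 and 7.76 in the other parental tumours and 6.97 to 7.54 in spheroid tumours, and was not called (adjusted p = 0.518). The collagenase MMP1 read 10.98 in parental xenograft replicate 3 and 5.54 to 7.84 on the other 5 arrays.

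Transcription factors of the epithelial to mesenchymal transition did not move as a block. PRRX1, a homeobox factor of mesenchymal cells, read 8.97, 8.45 and 9.32 in parental tumours and 5.88, 5.46 and 5.97 in spheroid tumours, and fell by 3.14 (SE 0.24, adjusted p = 0.00358). It was the 1 named gene called under every setting and with each array left out. SNAI2, the zinc finger repressor Slug, read 5.21 to 5.27 against 4.06 to 4.34 (difference -1.06, SE 0.13, adjusted p = 0.0139), with the spheroid values below the lower quartile. The other 9 of the 11 factors were not called: TWIST1 differed by 0.91 (adjusted p = 0.303), TWIST2 by -0.91 (0.0560), ZEB1 by -0.44 (0.337) and ZEB2 by -1.63 (0.177). Among 16 mesenchymal genes FN1 and FAP were the 2 called, both lower, with 13 members below 0 and a median of -0.32. VIM differed by -0.18 (SE 0.11, adjusted p = 0.660) and CDH2, the neural cadherin, by -0.28 (0.666).

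Fibroblast markers moved in both directions beside these genes. FAP, a surface protease of activated fibroblasts and of some carcinoma cells, read 7.58, 6.78 and 7.45 in parental and 5.92, 5.96 and 5.87 in spheroid tumours (difference -1.35, SE 0.21, adjusted p = 0.0327). PDPN, a mucin-like glycoprotein of lymphatic vessels and of some fibroblasts and tumour cells, read 5.78, 5.90 and 6.28 against 7.47, 7.78 and 7.39 (difference 1.56, SE 0.17, adjusted p = 0.0115). These were the 2 of 16 fibroblast markers called, and the mean level of the list was 6.80 to 6.85 in parental and 6.71 to 6.78 in spheroid tumours. Its defining collagens did not pass: COL1A1 differed by -0.10, COL1A2 by -0.47 and COL3A1 by -0.68. The part of host or other cells in the matrix results was not tested, and in bulk tissue fewer cells of a type and less RNA per cell cannot be told apart. MFAP5, a microfibril protein singled out here after its values were seen, read 5.80, 6.73 and 10.12 in parental and 10.76, 11.51 and 10.96 in spheroid tumours and was not called (difference 3.53, SE 0.93, adjusted p = 0.150).

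Receptors for matrix and for neighbouring cells fell alongside. ITGB8, an integrin subunit that activates latent TGF-beta, read 7.51, 9.43 and 7.89 in parental and 5.36, 5.34 and 5.91 in spheroid tumours (difference -2.74, SE 0.44, adjusted p = 0.0353), though not after median centring, with the mean of its probe sets or without the widest arrays. ITGA1, a collagen-binding subunit, differed by -1.53 (SE 0.23, adjusted p = 0.0321). The other 14 of 16 integrins were not called, and ITGB1, the shared beta chain, lay between 13.39 and 13.90 on all arrays. CD44, which binds hyaluronan and serves as a sorting marker in stem cell work, read 10.81, 11.09 and 11.14 against 9.99, 9.42 and 9.96 (difference -1.22, SE 0.19, adjusted p = 0.0321). Of its 13 probe sets 12 shared that sign. It was not called with the mean of its probe sets, after median centring, with all 12 arrays or without the widest arrays. The guidance receptor ROBO1 fell by 2.19 (SE 0.19, adjusted p = 0.00600), and the protocadherins PCDH7 (-2.69, SE 0.41, adjusted p = 0.0321) and PCDH9 (-1.30, SE 0.20, adjusted p = 0.0329) fell too. PCDH9 was not called with the mean of its probe sets, without _x_at and _s_at probe sets, after median centring or without the widest arrays. SEMA6A, a transmembrane semaphorin, went the other way (1.27, SE 0.21, adjusted p = 0.0381), the 1 of 27 adhesion and guidance genes called higher against 4 called lower.

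A few genes of regulated secretion fell, while most genes of the neuroendocrine list were not called. SCG2, a granin packed into secretory granules of neuroendocrine cells, read 13.33, 13.06 and 12.55 in parental and 9.19, 9.61 and 10.43 in spheroid tumours (difference -3.24, SE 0.32, adjusted p = 0.00796). CPE, the carboxypeptidase that trims peptide hormones in those granules, fell by 2.38 (SE 0.36, adjusted p = 0.0321), and SYT1, the calcium sensor of vesicle release, by 0.96 (SE 0.14, adjusted p = 0.0311). RAB27B, a GTPase of granule and exosome docking, read 10.00, 9.41 and 9.21 against 7.40, 7.28 and 7.82 (difference -2.04, SE 0.23, adjusted p = 0.0115). RAB27B is on no list and was named after its values were seen. Of 19 neuroendocrine genes 3 (SCG2, CPE and SYT1) were called lower and 0 higher, and the median was -0.16. The granule markers CHGA (-0.07) and SYP (-0.19) were not called, nor was INSM1, which stayed at or under 4.59.

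Several regulators of gene expression fell, while most listed developmental factors were not called. Of 26 developmental factors measured 2 (SATB1 and EYA4) were called lower and 0 higher. The median of that list was -0.04, with 11 members above and 15 below 0. SATB1, a chromatin organiser best known in T cells, read 9.43, 10.00 and 9.89 in parental and 5.90, 5.12 and 6.56 in spheroid tumours (difference -3.91, SE 0.33, adjusted p = 0.00600). Its other probe sets were dim and gave -0.89 and -0.64. SATB1 was not called on the former, and the latter was not fitted on its own. EYA4, a phosphatase and coactivator of organ development, differed by -2.30 (SE 0.25, adjusted p = 0.0115), and 2 of its 3 probe sets were negative. The zinc finger factor GLIS3 read 7.72, 8.87 and 8.04 against 5.37, 5.22 and 6.09 (difference -2.65, SE 0.32, adjusted p = 0.0140). ISL1, a homeobox factor of motor neurons and endocrine pancreas, differed by -1.14, TRPS1, a GATA-type repressor, by -1.52, and the glucocorticoid receptor NR3C1 by -0.95. ISL1, TRPS1 and NR3C1 are on no list and were named after their values were seen. HOXC10 was the 1 gene called, and higher, of 24 measured on a list of HOX genes and their cofactors (1.17, SE 0.18, adjusted p = 0.0321).

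The other genes with large falls had varied roles. KCNJ2, an inward rectifier potassium channel, read 9.55, 9.33 and 7.88 in parental and 5.11, 4.67 and 4.64 in spheroid tumours (difference -4.11, SE 0.40, adjusted p = 0.00749). It was the 1 of 21 listed potassium channels called. PRKAR2B, a regulatory subunit of protein kinase A, differed by -2.91 (SE 0.33, adjusted p = 0.0115), GUCY1B1, a subunit of the nitric oxide receptor guanylate cyclase, by -1.51 (SE 0.13, adjusted p = 0.00600), and the calcium channel subunit CACNA2D1 by -1.25 (SE 0.20, adjusted p = 0.0368). CAP2, an actin monomer-binding protein, read 10.53, 10.06 and 9.44 against 5.87, 6.48 and 7.06 (difference -3.54, SE 0.34, adjusted p = 0.00749). MGST1, a membrane-bound glutathione transferase, fell by 2.62 (SE 0.31, adjusted p = 0.0129) on a probe set shared with related sequences, and by 0.21 (not called) on a dim one without them. GAGE1, of a family of near-identical cancer-testis genes that one probe set cannot tell apart, differed by -2.46 (SE 0.37, adjusted p = 0.0321). The imprinted neighbours SGCE and PEG10 were both lower (-1.08 and -1.25).

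Among the genes that rose, several encode membrane proteins that relay signals. PLD5, a phospholipase D relative of unknown catalytic role, read 5.63, 5.53 and 5.71 in parental tumours and 8.11, 8.94 and 9.32 in spheroid tumours (difference 3.17, SE 0.28, adjusted p = 0.00600). None of the other 5 listed phospholipase D genes was called. STYK1, a membrane kinase-like protein, rose by 3.00 (SE 0.44, adjusted p = 0.0309), and FLRT2, a surface ligand of Unc5 and latrophilin receptors, read 7.96, 8.31 and 7.06 against 10.30, 11.02 and 10.46 (difference 2.82, SE 0.32, adjusted p = 0.0118). FLRT3 of the same family went the other way (-1.40, SE 0.14, adjusted p = 0.00749). S1PR1, a receptor for sphingosine 1-phosphate, read 6.64, 6.86 and 7.02 against 8.09, 9.11 and 9.46 (difference 2.05, SE 0.32, adjusted p = 0.0333). Its divergent transcript S1PR1-DT rose too (1.82, SE 0.20, adjusted p = 0.0115), from 3.98 to 4.35 in parental tumours, below the lower quartile. The tetraspanin TSPAN13 read 10.06, 11.19 and 10.33 against 12.40, 12.61 and 12.56 (difference 1.99, SE 0.27, adjusted p = 0.0228).

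NEDD4L, a ubiquitin ligase that removes sodium channels and other membrane proteins, rose as well. It read 8.25, 7.86 and 8.21 in parental and 10.09, 10.14 and 10.22 in spheroid tumours (difference 2.04, SE 0.14, adjusted p = 0.00358). It stayed called whichever array was left out, though not without _x_at and _s_at probe sets or with all 12 arrays in the fit. The Src-family kinase YES1 rose by 1.61 (SE 0.24, adjusted p = 0.0321), ALDOC, the brain-type aldolase of glycolysis, by 1.68 (SE 0.17, adjusted p = 0.00925) and DOCK10 by 2.25 (SE 0.36, adjusted p = 0.0352). TNNI3, the cardiac troponin I, differed by 1.54 (SE 0.25, adjusted p = 0.0353) and was the 1 of 7 listed troponins called. SUN3, a nuclear envelope protein of sperm heads, differed by 2.65 (SE 0.38, adjusted p = 0.0309).

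Some genes known from surface epithelia rose, a grouping made after the values were seen. AP1M2, the epithelial subunit of a sorting adaptor, read 6.66, 7.71 and 7.22 in parental and 9.02, 8.98 and 8.99 in spheroid tumours (difference 1.80, SE 0.24, adjusted p = 0.0228). SFN, the epithelial 14-3-3 sigma protein, rose by 1.62 (SE 0.27, adjusted p = 0.0395), EZR, which ties membrane to actin in microvilli, by 1.03 (SE 0.13, adjusted p = 0.0189), and DMKN, a protein secreted by skin, by 1.93 (SE 0.30, adjusted p = 0.0333). SPINT2, an inhibitor of epithelial surface proteases, read 7.51, 6.64 and 6.23 against 8.33, 8.80 and 9.09 (difference 1.95, SE 0.32, adjusted p = 0.0399). It was not called with the replicate block (adjusted p = 0.0528), with all 12 arrays in the fit, after median centring or without the widest arrays. Of 19 keratin and junction genes 0 were higher and 1 lower, the desmosomal cadherin DSG2 (-1.17, SE 0.17, adjusted p = 0.0307). DSG2 was not called with the mean of its probe sets or with all 12 arrays in the fit. The median of the list was 0.09. The tight junction gene OCLN differed by 0.86 (adjusted p = 0.0539, and 0.0263 with the block) and desmoplakin, DSP, by 1.88 (adjusted p = 0.173, and 0.0181 with the block).

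Interferon-stimulated genes lay higher in spheroid tumours, most of them by small steps. Of 38 measured members 36 had a positive difference, as did 54.2% of all genes. The groups did not overlap for 16 members, all of these higher, beside 9.28% of all genes higher without overlap. The median was 0.32, against 0.02 over all genes, and 0.23 to 0.46 when single arrays were left out. IFIT1, which binds foreign RNA, read 5.16, 5.54 and 5.96 in parental and 8.04, 6.89 and 7.22 in spheroid tumours (difference 1.83, SE 0.31, adjusted p = 0.0423). PARP14, an ADP-ribosyltransferase, differed by 0.94 (SE 0.14, adjusted p = 0.0321) and IFI35 by 0.88 (SE 0.13, adjusted p = 0.0309). These 3 were called, and 0 members were lower. Each of the 3 lost its call in 5 of the 6 fits that left out 1 array, and all 3 without the widest array of each group. IFIT1 also lost it with all 12 arrays, after median centring, after cyclic loess and without _x_at and _s_at probe sets, IFI35 with all 12 arrays, and PARP14 with the mean of its probe sets. ISG15, a ubiquitin-like modifier, read 9.30, 10.08 and 10.10 against 11.15, 10.75 and 11.03 (difference 1.15, SE 0.23, adjusted p = 0.0713), and IFI6 differed by 1.09 (SE 0.20, adjusted p = 0.0541). The factor IRF7 differed by 0.68 (adjusted p = 0.0886) and was the 1 added call with the replicate block (0.0448). The members did not share 1 size of change: OAS1 differed by 0.06, MX2 by 0.09 and IFIT3 by 0.14.

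Promoters were read for a GAAA repeat that interferon-stimulated genes are known for. RefSeq promoter windows of 300 bases, 250 of them before the start of the gene (GRCh38.p14), were searched on both strands for GAAA, any 2 bases and GAAA again, where matches may overlap. Of 31 interferon members with a window 21 held a match, against 1255 of 35116 windows (3.57%) in all. For listed and called genes only the first window of each gene was counted. The 35116 windows were limited neither in this way nor to measured genes. Over all genes called, 4 of 46 windows of genes called higher held one (IFIT1, PARP14, BCL2A1 and CREG1) and 0 of 74 of genes called lower. IFI35 held none. A match is a description of these letters and not a measured binding site. The stretches around the matches are printed from 5′ to 3′ along each gene, with the matches in capitals, for IFIT1 (chr10:89392470-89392579, plus strand), PARP14 (chr3:122680760-122680838, plus strand), ISG15 (chr1:1013340-1013449, plus strand), IFI6 (chr1:27672226-27672335, minus strand) and BCL2A1 (chr15:79971270-79971379, minus strand).
IFIT1: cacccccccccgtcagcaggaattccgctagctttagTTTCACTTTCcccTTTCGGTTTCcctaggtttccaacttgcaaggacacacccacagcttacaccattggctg
PARP14: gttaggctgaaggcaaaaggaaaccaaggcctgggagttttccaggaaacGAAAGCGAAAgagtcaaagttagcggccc
ISG15: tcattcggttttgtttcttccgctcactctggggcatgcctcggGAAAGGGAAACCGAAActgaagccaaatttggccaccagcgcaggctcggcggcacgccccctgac
IFI6: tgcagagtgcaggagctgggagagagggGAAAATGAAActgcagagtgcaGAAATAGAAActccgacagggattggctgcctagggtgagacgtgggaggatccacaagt
BCL2A1: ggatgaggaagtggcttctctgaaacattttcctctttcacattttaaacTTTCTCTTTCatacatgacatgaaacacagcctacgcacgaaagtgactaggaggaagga

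BCL2A1, a survival protein of the BCL2 family that is no member of the interferon list, rose from 4.49, 4.28 and 4.21 in parental to 6.58, 5.96 and 6.90 in spheroid tumours (difference 2.16, SE 0.23, adjusted p = 0.0115). Its parental level lay below the lower quartile of all probe sets, so the size of the rise is uncertain. MLKL and NLRP3, which act in inflammatory forms of cell death, rose too. MLKL, the pore-forming effector of necroptosis, read 7.41, 7.55 and 7.81 against 8.93, 9.15 and 8.97 (difference 1.42, SE 0.15, adjusted p = 0.00925), and NLRP3, the inflammasome sensor, differed by 1.24 (SE 0.15, adjusted p = 0.0133). MLKL and NLRP3 were named after their values were seen, and the theme was fixed on no list. Of 23 apoptosis regulators measured 0 were called, with 12 below 0 and a median of -0.04. Of 17 genes of MHC class I presentation 0 were called, with 13 above 0 and a median of 0.23. HLA-E differed by 0.58 (adjusted p = 0.274), TAP1 by 0.41 (0.203) and B2M by -0.03 (0.987).

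**Figure D3:**
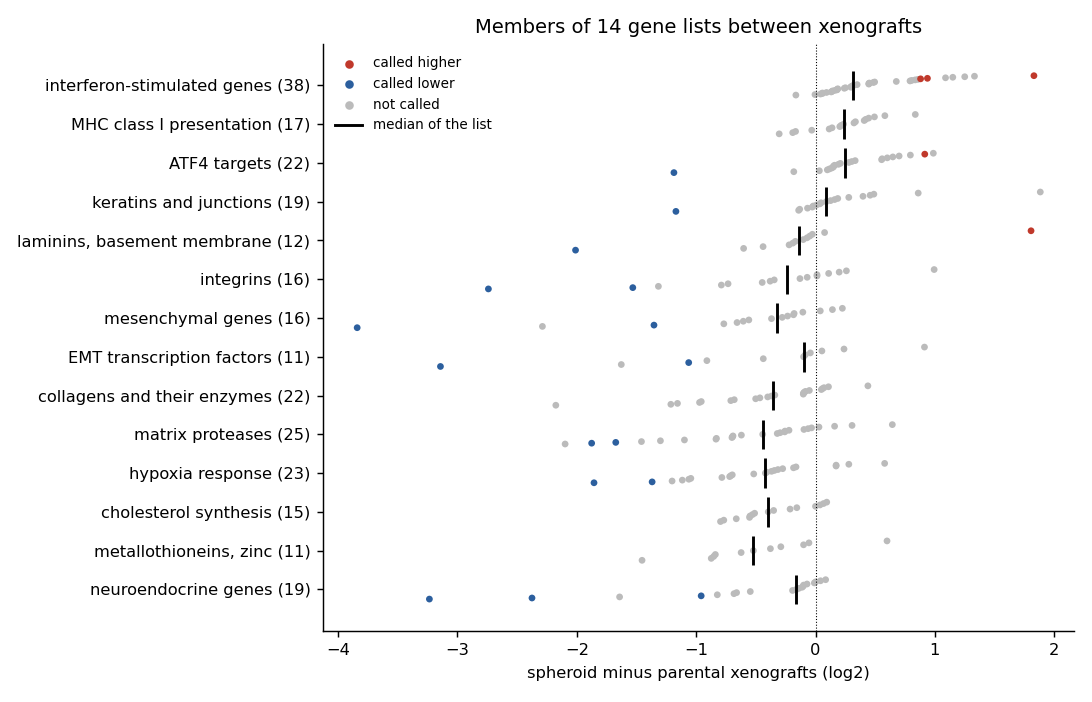
Difference between spheroid and parental xenografts (log2) of each measured member of 14 gene lists. Points are genes, red where called higher, blue where called lower and grey where not called, and the bar is the median of the list; it is 0.32 for interferon-stimulated genes and -0.44 for matrix proteases.

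Of 23 genes of the hypoxia response 2 were lower and 0 higher, with 19 below 0 and a median of -0.42, or -0.69 to -0.30 when single arrays were left out. SLC2A3, a high-affinity glucose transporter, read 11.29, 11.04 and 10.21 in parental and 8.90, 8.99 and 9.09 in spheroid tumours (difference -1.86, SE 0.26, adjusted p = 0.0288). PFKFB3, which makes the activator of phosphofructokinase, ran from 8.74 to 9.12 against 7.30 to 8.13 (difference -1.37, SE 0.24, adjusted p = 0.0467). PFKFB3 was not called after median centring, and neither PFKFB3 nor SLC2A3 was called with all 12 arrays in the fit. With the replicate block 3 more were lower: the pyruvate dehydrogenase kinase PDK1 (-1.06, blocked adjusted p = 0.0250), PFKFB4 (-1.04, 0.0306) and the lipid droplet protein HILPDA (-0.78, 0.0489). VEGFA, the vessel growth factor, read 11.14, 9.80 and 9.73 against 8.82, 8.60 and 9.66 and was not called (adjusted p = 0.262). ADM, the vasodilator adrenomedullin, lay on the other side (0.58, adjusted p = 0.453). Of 18 glycolysis genes ALDOC was the 1 called, higher, while 12 lay below 0 (median -0.12).

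Of 15 genes of cholesterol synthesis and control 0 were called, with 12 below 0 and a median of -0.40. The carrier STARD4 read 9.92, 9.66 and 9.99 in parental and 9.09, 9.17 and 9.01 in spheroid tumours (difference -0.77, SE 0.14, adjusted p = 0.0511, and 0.0453 with the block). HMGCS1, the synthase at the start of the pathway, differed by -0.80 (adjusted p = 0.107, and 0.0467 with the block). Of 11 metallothioneins and zinc transporters 0 were called, with 10 below 0 and a median of -0.52 (-0.10 without _x_at and _s_at probe sets). The zinc exporter SLC30A1 differed by -1.45 (adjusted p = 0.102). Of 22 ATF4 targets of amino acid supply 20 lay above 0, with a median of 0.24. The transporter SLC7A5 rose (0.92, SE 0.14, adjusted p = 0.0333), and the lipoprotein receptor VLDLR on the same list fell (-1.19, SE 0.14, adjusted p = 0.0133). With the block the list had 4 higher and 1 lower. The lists for DNA synthesis, mitosis, ribosomal proteins and the respiratory chain had 0 called genes each and medians of -0.05, 0.03, 0.05 and 0.07.

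Of 23 stem cell markers 0 were higher and 1 lower (CD44), with a median of -0.02. PROM1, ALDH1A1 and LIN28A lay at or under 4.36 on all 6 arrays, below the lower quartile, where a change may not have been detectable. SOX2 differed by -0.30 (SE 0.12, adjusted p = 0.375), NANOG by -0.02 (0.991) and LGR5 by 0.21 (0.766). KLF4 read 7.00, 8.17 and 10.30 in parental and 8.32, 6.62 and 7.14 in spheroid tumours, and its groups overlapped.

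The tumour differences were then set beside the difference of the same kind between spheroid and parental cells in culture, read on the same probe sets of the other 6 arrays. Of the 58 genes higher in spheroid tumours 50 (86.2%) also had a positive difference in culture, where 61.7% of all genes did, with a median culture difference of 0.85. Of the 96 lower genes 76 (79.2%) were negative in culture, where 38.3% of all genes were, with a median of -0.64. None of the 154 was called in culture, where the 6 culture arrays alone gave 13 calls (0.0657%). PLD5 differed by 3.17 between tumours and 3.60 in culture, FLRT2 by 2.82 and 2.49, SH3BGRL by -2.96 and -2.95, FBN2 by -2.93 and -2.68, and OSBPL6 by -2.69 and -2.42. TSPAN13 differed by 1.99 and 3.77, and ESM1, a proteoglycan of endothelial and some tumour cells, by 1.63 and 4.24. Other called genes had culture differences near 0 or of the opposite sign. FN1 stood at -3.84 and -0.01, MGP at -4.97 and 0.37, STC1 at -3.43 and 0.52, SCG2 at -3.24 and 0.46, and ITGB8 at -2.74 and 0.32. The hypoxia list had a median of -0.42 between tumours and 0.72 in culture, and the ATF4 list 0.24 and -0.39.

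The test of that contrast of differences, an interaction fitted to all 12 arrays, called 27 genes (0.137%), of which 7 were among the 154. With the replicate number as a block it called 12, 10 of them among the 27, and 3 of the 7 stayed called: SPARC, S100A16 and MYO5C. In this fit the block also tied culture arrays to tumour arrays of the same number, a pairing that the labels do not state and that was not checked. The blocked adjusted p was 0.0521 for PRRX1 and 0.0554 for SLC2A3. SPARC differed by -4.25 between tumours and by -0.32 in culture (interaction -3.93, SE 0.20, adjusted p = 4.37e-06), and PRRX1 by -3.14 and -0.18 (interaction -2.97, SE 0.40, adjusted p = 0.0190). SLC2A3 changed sides, at -1.86 and 1.26 (interaction -3.12, SE 0.50, adjusted p = 0.0416), and so did the calcium-binding protein S100A16, at -1.92 and 0.70 (interaction -2.62, SE 0.26, adjusted p = 0.00296). The count of 27 moved with single arrays. Among spheroid xenografts, leaving out replicate 1 or 2 gave 2 and replicate 3 gave 7, and among parental xenografts replicate 1 gave 16 and replicate 2 gave 6. In culture, leaving out spheroid replicate 2 or 3 gave 3 or 2, and parental replicate 1 or 2 gave 97 or 193. For the rest of the 154 a difference between tumour and culture was not shown.

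**Figure D4:**
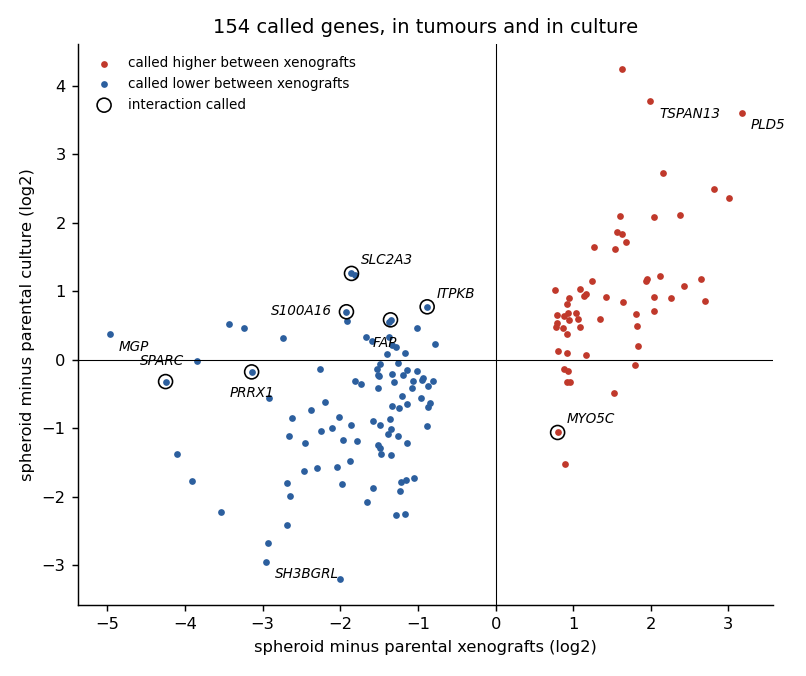
Difference between spheroid and parental xenografts (log2, horizontal axis) against the difference between spheroid and parental culture on the same probe sets (log2, vertical axis) for the 154 genes called between xenografts. Red genes were called higher and blue ones lower, and rings mark the 7 whose interaction was called; SPARC lies at -4.25 and -0.32, PLD5 at 3.17 and 3.60.

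Some changes ran together along chromosomes. Genes above the mean lower quartile were put in the order of the RefSeq gene table, and medians were taken over 785 windows of 60 neighbouring genes. Of the 16818 genes placed 54.1% were higher in spheroid tumours, with a median of 0.02. In culture 61.1% of them were higher in spheroid cells, with a median of 0.08. The windows ran from -0.37 to 0.44, with quartiles of -0.03 and 0.07. Windows with a median of 0.2 or more in either direction were joined where they overlapped, which gave 10 stretches. The median of a whole stretch can fall short of 0.2. The stretches were found by their values and carry no test. The widest was on chromosome 6, from MLIP to MYB: of its 240 genes 190 (79.2%) were lower in spheroid tumours, and the median was -0.27. Without the filter on dim genes the median over 303 genes was -0.17, short of 0.2. Centred on each gene's mean, the stretch stood at 0.10, 0.02 and 0.36 in the parental and at -0.09, -0.28 and -0.06 in the spheroid tumours, so every spheroid tumour lay below every parental tumour. In culture the same stretch had a median of -0.41 with 176 genes lower, though its parental arrays read -0.04, 0.69 and 0.17. EYA4 was its 1 called gene.

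The highest stretch lay on chromosome 19, from ZNF414 to CYP4F22. Of its 160 genes 138 (86.3%) were higher in spheroid tumours, with a median of 0.31, and the arrays stood at -0.20, -0.12 and -0.14 in parental and at 0.11, 0.19 and 0.19 in spheroid tumours. Without the filter on dim genes the median was 0.28. In culture the median was 0.20, with 131 genes higher. Its called genes were MYO1F, ICAM3, CDC37 and AP1M2. The next stretch on the same chromosome ran from CYP4F8 to PLEKHF1 (140 genes, median 0.22, culture 0.15) and came to 0.16 without the filter. It held DDA1, UNC13A and MPV17L2, and all 7 of these called genes were higher, by 0.79 to 1.80. CDC37, the co-chaperone that delivers kinases to HSP90, read 10.50, 10.60 and 10.90 against 11.50, 11.62 and 11.53.

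Of the other 7 stretches 3 were lower. They ran on the X chromosome from CYBB to MAGED1 (median -0.25, culture -0.20), on chromosome 10 from AKR1C1 to ZNF33A (-0.22, culture -0.01) and on chromosome 12 from ETV6 to ITPR2 (-0.22, culture 0.09). The last held MGP, MGST1 and RASSF8 and came to -0.05 without the filter on dim genes. Without it the X chromosome stretch came to -0.198 and the chromosome 10 stretch to -0.15. The 4 higher ones ran on chromosome 1 from AUNIP to TAF12 (0.21, culture 0.21), on chromosome 10 from TCTN3 to TCF7L2 (0.22, culture 0.03), on chromosome 14 from GSKIP to ELK2AP (0.18, culture 0.00) and on chromosome 16 from CENPT to ZNF821 (0.22, culture 0.22). Without the filter these came, in that order, to 0.20, 0.18, 0.16 and 0.21. On both stretches of chromosome 10 the culture median stayed near 0. No DNA was measured, and whether copy number differs between the groups was not tested.

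**Figure D5:**
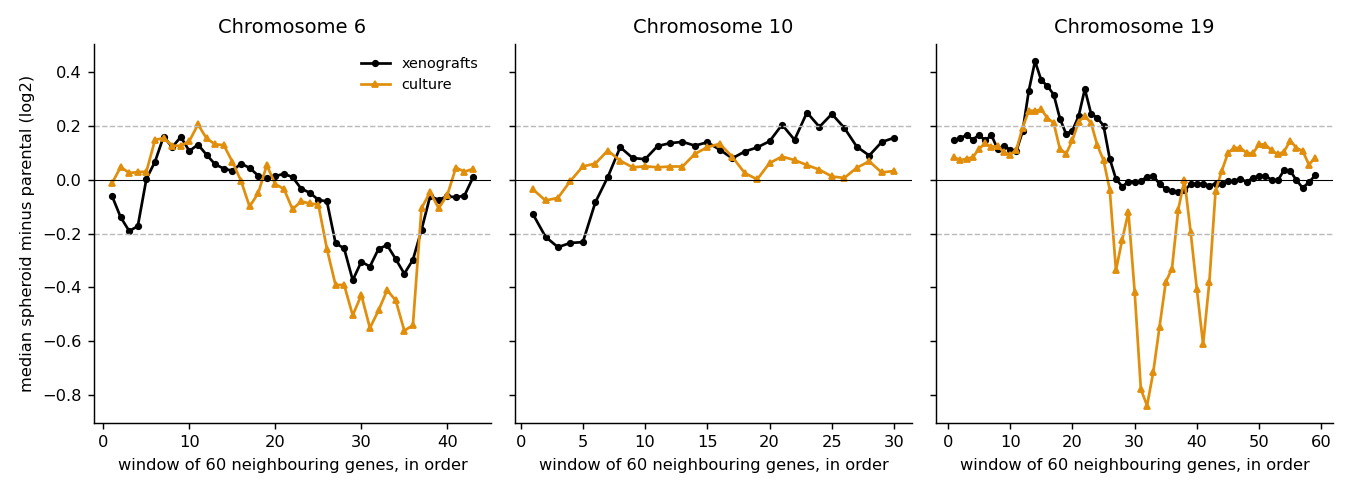
Median difference between spheroid and parental samples (log2) over windows of 60 neighbouring genes, in order along chromosomes 6, 10 and 19. Black circles are xenografts and orange triangles culture, and dashed lines mark 0.2 in either direction; the xenograft line reaches -0.37 on chromosome 6 and 0.44 on chromosome 19, where the culture line also drops to -0.84 in a later stretch in which the xenograft line stays near 0.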

How the data were processed

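Gene expression was measured on 12 arrays of NCI-H1299 cells and tumours, 1 per sample, from 2 µg of total RNA each. The authors deposited log2 expression values, 1 per probe set, made with RMA and affy according to the submitters' processing notes. The sources used here give no versions and do not say if the 12 arrays were normalised as 1 set. RMA pulls the arrays to a like distribution, so a change shared by most genes would not show.

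Of 54675 probe sets 41091 had 1 gene symbol, 1801 had several, 11721 had none and 62 were controls. Symbols were updated by gene number for 41037 through the RefSeq GRCh38.p14 gene table. Each of 19775 genes was read by whichever of its probe sets had the highest mean level on the 6 xenograft arrays, with no filter on dim genes. Different probe sets of a gene can disagree.

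The 6 xenograft arrays alone were fitted with 1 mean per group by limma 3.58.1 in R 4.3.3 (lmFit and eBayes, two-sided, Benjamini-Hochberg over all genes). A gene was called at an adjusted p under 0.05. The interaction was fitted to all 12 arrays. The small number of arrays bounds the precision, and an exact permutation test of 3 against 3 cannot go below p = 0.1. The script was tested on simulated data.

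Deviations from the group means correlated over genes at 0.18, 0.21 and 0.48 between arrays of the same replicate number, though spheroid replicate 1 correlated more with parental replicate 2 (0.25). All 3 exceed 0.1, so the replicate number was used as a block in an alternative fit. The calls and adjusted p-values are from the fit without the block unless the block is named. The pairing comes from the data, as the labels state none, and the arrays of replicate 3 have the widest spread in both groups. The blocked fit also leaves fewer residual degrees of freedom than the fit without the block. Blocked values are given for only some of the genes whose call they change. With the block 3 integrins, 6 adhesion and guidance genes, 3 potassium channels and 3 developmental factors were lower. Of the NF-kappaB targets and cytokines 4 were then higher.

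There were 50 pathway and 11 cell type lists, with 1026 of 1129 genes represented; 42 called genes were on a list and 112 on none. Lists are described by counts and medians, with no test. Named genes are the 20 largest differences in each direction among called genes without overlap (symbols such as LOC, FAM, KIAA, orf or antisense names left out), up to 4 called members of each list or its member of lowest p, and defining markers; others are named after their values were seen. The comparison, the lists and this rule were chosen with earlier results of these data known. Alternatives covered the samples in the fit, the block, 3 normalisations, probe set rules, a filter on dim genes, an intensity trend, array weights and leaving out each array.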

Additional observations from a re-analysis of the deposited data

Results flagged for a closer look

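For 7 genes called between xenografts the difference between spheroid and parental tumours differed from that between spheroid and parental culture, by an interaction term fitted with limma to all 12 arrays. The tumour difference minus the culture difference was -3.93 for SPARC (adjusted p = 4.37e-06), -2.97 for PRRX1 (adjusted p = 0.0190), -3.12 for SLC2A3 (adjusted p = 0.0416) and -2.62 for S100A16 (adjusted p = 0.00296), which are described above. It was -1.94 for FAP (SE 0.32, adjusted p = 0.0416), which was lower in spheroid tumours (-1.35) and lay higher in spheroid culture (0.58). ITPKB, a kinase of inositol phosphates, gave -1.65 (SE 0.25, adjusted p = 0.0340), from -0.88 between tumours and 0.77 in culture. With the replicate number as a block, SPARC (adjusted p = 1.97e-05), S100A16 (0.00347) and MYO5C (0.0377) stayed called, and PRRX1 (0.0521), SLC2A3 (0.0554), FAP (0.0521) and ITPKB (0.0608) did not. MYO5C, an unconventional myosin of secretory cells, was the 1 that went the other way, at 1.86 (SE 0.24, adjusted p = 0.0171), from 0.80 between tumours and -1.06 in culture.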

How the results depend on the processing

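The 154 calls became 46 with all 12 arrays in the fit, 69 after median centring, 245 after quantile normalisation again, 263 with an intensity trend and 1108 with array weights, and 6 to 417 when single arrays were left out. With the replicate number as a block, 478 genes passed, as did 80 list genes, 387 with the same sign in culture and, for the interaction, 12. The 42 called list genes became 23 with all 12 arrays, 23 without _x_at and _s_at probe sets, 22 after median centring and 151 with array weights, and 3 to 85 with single arrays left out. The 126 genes with the same sign in culture became 36 with all 12 arrays, 58 after median centring, 192 after quantile normalisation, 206 with the trend and 811 with weights, and 5 to 312 with single arrays left out. The 27 interaction calls became 133 after quantile normalisation, 8 after median centring, 94 after cyclic loess, 896 with weights, 42 without the widest array of each group (an alternative chosen after seeing the data), and 2 to 193 with single arrays left out. The 65 named genes called became 28 with all 12 arrays, 37 after median centring, 42 without those probe sets and 38 without the widest arrays, and 5 to 65 with single arrays left out. The cause of these shifts was not tested; the last probe set rule puts other and often dimmer probe sets in place of the first. None of the 65 called named genes changed sign under the alternatives run; named genes that were not called were not followed. Of the 65, 11 stayed called under every alternative other than leaving out single arrays. The interaction has no value of its own with all 12 arrays in the fit or with probe sets chosen over 12 arrays, which its own fit already uses. Genes near or under the lower quartile of signal have uncertain sizes: 9 of the 154 had a group mean there.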
